A study of Danio rerio with 7 samples.

Results

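The genes described here are the sensors of the innate immune response of zebrafish and the interferon regulatory factor (IRF), signal transducer and activator of transcription (STAT) and Janus kinase (JAK) genes through which that response is relayed. Members were chosen by gene name: every identifier of the count matrix whose Ensembl zebrafish name begins with one of a fixed set of family names (such as *tlr*, *irf*, *stat*, *jak*, *socs*, *traf* and *crfb*). Of the 17570 genes in the matrix, 80 members are described. The gene name table holds 114 such entries, each an identifier with its name. The other 34 have no row in the matrix, among them *cgas*, *sting1*, *irf8*, *tlr2*, *tlr9*, *ifng1* and a further identifier named *traf2*. No entry of the 114 was named *rigi*, a cytosolic RNA sensor, or *crfb5*, a receptor chain. These genes were therefore not assessed. Of the 80 members, 70 belong to the families themselves and 10 share only the start of a name, such as *jakmip1* and *irf2bp1*. For 4 names the matrix holds 2 identifiers, which are called copy 1 and copy 2 in the order of their identifiers: *socs3* (ENSDARG00000025428 and ENSDARG00000026611), *socs6*, *traf4* and *irf2bp2*.

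The RNA came from PAC2, a permanent line derived from zebrafish embryos, of wild-type origin and without any treatment, agent or edited allele in either group. Cells were grown in L-15 medium with fetal calf serum and sampled on day 8 after seeding (exponential phase, 4 libraries, replicates 1 to 4) or on day 14 (stationary phase, 3 libraries, replicates 1, 2 and 4). Each replicate was a passage of the same line started on its own day, so the replicates measure the spread within one line. The medium was exchanged on day 7, so that day 8 cells were 1 day and day 14 cells 7 days past fresh medium, and growth phase and time since the exchange cannot be told apart.

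In vertebrate cells, foreign RNA, DNA or cell wall pieces are recognised by sensors in the cytosol and by Toll-like receptors in membranes. Adaptors and kinases pass the signal to the IRF and NF-kB transcription factors, which switch on interferon. Secreted interferon binds receptors that carry Janus kinases, these activate STAT proteins, and together with IRF9 the STAT proteins form the complex ISGF3 that turns on the interferon-stimulated genes. Many components of the chain are themselves interferon-stimulated, and the SOCS proteins and USP18 close the loop by inhibiting the receptors and their kinases.

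Library totals ranged from 11252559 to 33414743 estimated counts. Values are given in CPM, the counts relative to library sizes scaled with TMM (factors from 0.883 to 1.15), and are listed throughout in the order of replicates 1, 2, 3 and 4 of day 8, followed by replicates 1, 2 and 4 of day 14. They are not divided by transcript length, so levels of different genes are not compared. Differences are log2 of day 14 over day 8 with the standard error (SE), and a gene was called at a Benjamini-Hochberg adjusted p below 0.05 over all 17570 genes in edgeR's quasi-likelihood test. The 8 proliferation genes examined (*mki67*, *pcna*, *mcm2* and others) were all called lower on day 14, with a summed level of 1970 to 2330 CPM on day 8 and 917 to 1230 CPM on day 14. For comparison with the marker counts, 12.0% of all genes were called higher and 13.3% lower, or 6.93% and 18.5% without library scaling. Of 9 fibroblast and mesenchyme markers 5 were called higher, and 1 without library scaling. Over all 9 the summed level was 2990 to 5560 CPM on day 8 and 5480 to 7190 CPM on day 14. This sum came mostly from *col1a2* (means 1700 and 2900 CPM, called higher) and *col1a1a* (1410 and 1910 CPM, not called). The call kept without scaling was that of *vim* (adjusted p = 0.048), at no more than 0.874 CPM and 3 to 21 counts. The authors had dropped genes of very low expression, so *vim* may have had a row only through its day 14 level. Of 6 epithelial markers 2, *cdh1* and *krt4*, were called lower, and the other 4 were not called, with differences above 0. Over all 6 the summed level was 4100 to 5270 and 4720 to 5360 CPM. Most of it came from *krt8* (means 2420 and 2680 CPM) and *krt18a.1* (1930 and 2160 CPM). Of 3 endothelial markers 1, *kdrl*, was called lower (summed level 2.99 to 8.09 and 2.62 to 4.47 CPM), and 0 of the 12 leukocyte markers in the gene name table were among the tested genes. The part of these shifts in the differences below was not tested.

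More members were called higher than lower on day 14. Of the 80 members, 24 were called higher and 2 lower, or 32.5% in either direction, where 25.3% of all genes tested were called, 12.0% higher and 13.3% lower. The median log2 difference of the members was 0.29 (from -1.17 to 3.65), while that of all genes was 0.00. For 29 members every day 14 library lay above every day 8 library, and for 3 below, whereas 34.8% of all genes showed no overlap, 17.1% higher and 17.7% lower. Of the 54 members not called, 4 had an unadjusted p below 0.05. Without library scaling the median of all genes moved to -0.17, the split of all genes changed from 2101 higher and 2344 lower to 1218 and 3258, or 6.93% and 18.5%, and 13 members were called higher, all of them among the 24. When replicate 2 of day 14 was omitted, 15 members were called higher, again all among the 24, beside 7.30% of all genes called higher and 8.18% lower. With the replicate number as a block, 27 members were called higher and 3 lower (all genes, 17.7% and 18.9%), and with a minimum mean of 5 CPM, 21 of 54 members were higher and 1 lower (all genes, 14.2% and 18.7%). In bulk RNA, a change in the number of cells that express a gene and a change in the RNA per cell cannot be told apart.

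**Figure D1:**
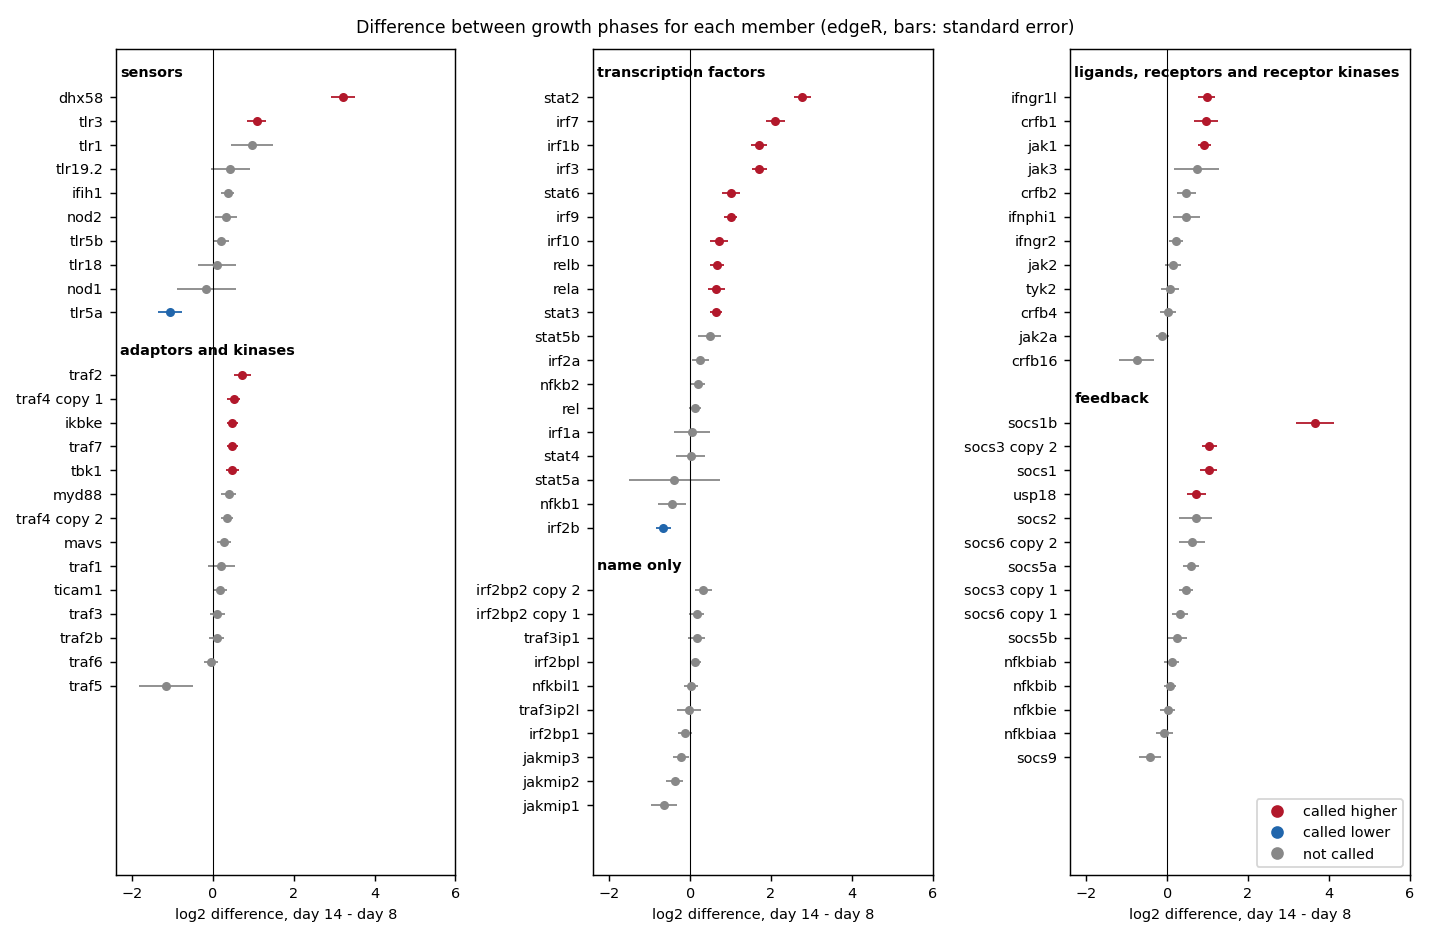
Log2 difference of day 14 over day 8 for each of the 80 members, by role, with horizontal bars for the standard error and a line at 0. Red points were called higher (24 members), blue points lower (2) and grey points were not called (54). The largest rises are those of *socs1b* (3.65), *dhx58* (3.21) and *stat2* (2.77), and the name-only members lie around 0.

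The 10 sensors were split. *dhx58* and *tlr3*, which both recognise double-stranded RNA, rose, *tlr5a* fell, and the other 7 were not called (median of the 10, 0.34). In either direction 30.0% of the sensors were called, close to the 25.3% of all genes. *dhx58* encodes LGP2, a cytosolic RNA helicase that lacks the signalling domains of its relatives and tunes their output. It was at 4.25, 1.7, 2.45 and 1.66 CPM on day 8 and at 19.4, 28.1 and 19.8 CPM on day 14. The lowest day 14 library lay far above the highest day 8 library, a 9.24-fold difference (log2 3.21, SE 0.30, adjusted p = 5.71e-05) that was called in each of the 18 alternative analyses. *ifih1* encodes MDA5, the signalling relative of LGP2. Its values of 12.7, 11.4, 9.57 and 9.68 CPM on day 8 and 15.1, 14.3 and 12.1 CPM on day 14 overlapped, and the difference of 0.36 (SE 0.17, adjusted p = 0.148) was not called.

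Of the Toll-like receptors, *tlr3* senses double-stranded RNA in endosomes. It was at 2.32, 2.4, 1.74 and 2.43 CPM on day 8 and at 4.65, 5.24 and 4.26 CPM on day 14, with no overlap (2.11-fold, log2 1.08, SE 0.23, adjusted p = 0.00493). Both copies of the flagellin receptor were measured, and 1 of them was called. *tlr5a* was at 4.56, 5.98, 2.83 and 5.59 CPM on day 8 and at 2.16, 1.81 and 2.87 CPM on day 14, so that the lowest day 8 library, replicate 3, fell within the day 14 range. Its log2 difference was -1.06 (SE 0.30, adjusted p = 0.0200), and the call was lost without replicate 2 or 4 of day 8 or replicate 1 or 2 of day 14, with an adjusted p of at most 0.0913. *tlr5b* ranged from 4.89 to 6.88 CPM on day 8 and from 5.83 to 7.61 CPM on day 14 and was not called (0.20, adjusted p = 0.501). The peptidoglycan sensors *nod1* (-0.17) and *nod2* (0.32) and the receptors *tlr1* (0.96), *tlr18* (0.10) and *tlr19.2* (0.43) were not called either, all with low levels of at most 4.02 CPM. The libraries of *tlr1* did not overlap (0.0773 to 0.591 CPM on day 8 and 0.641 to 0.904 CPM on day 14), but its values rest on 1 to 23 counts.

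**Figure D2:**
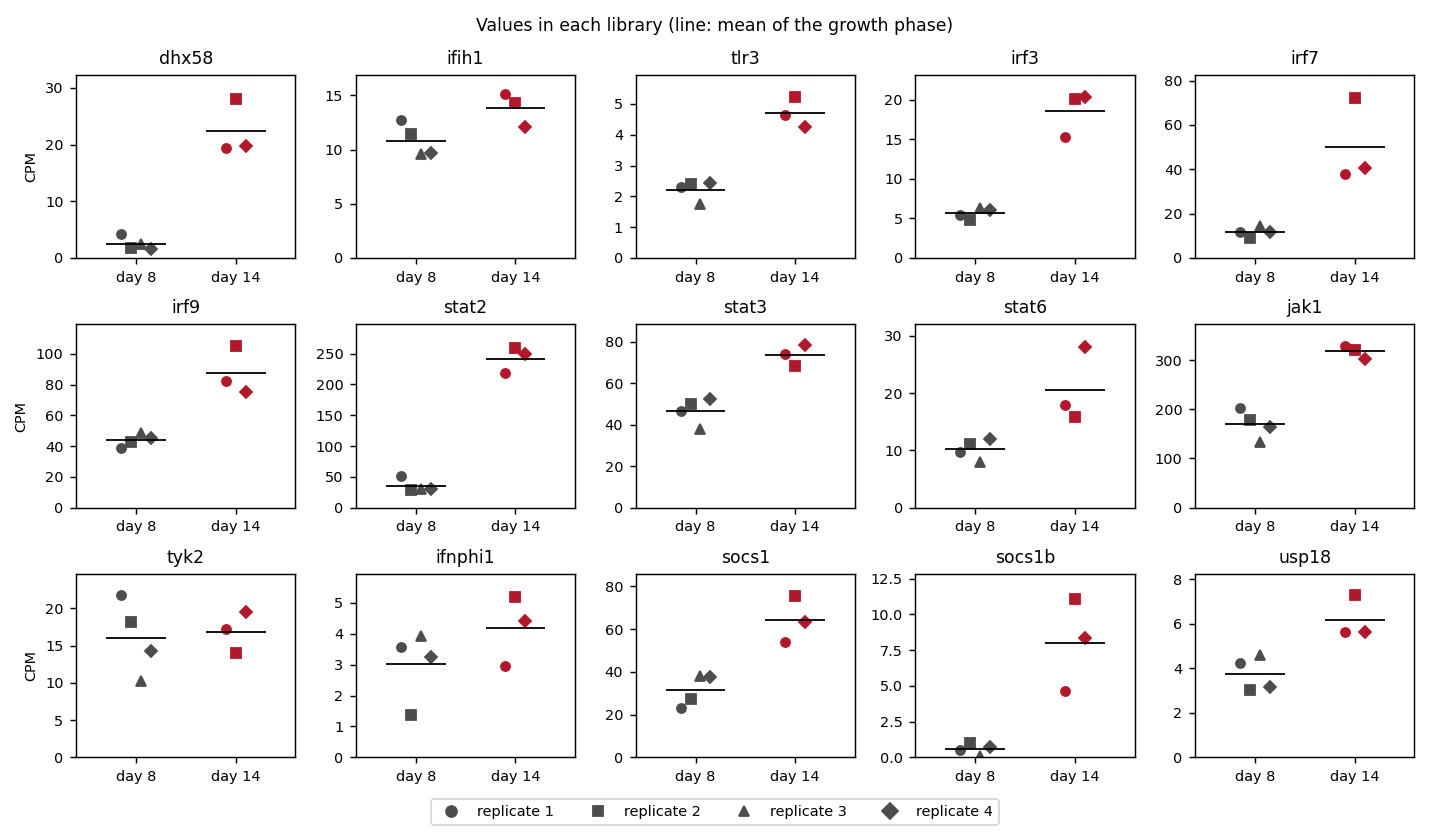
Level in CPM (vertical axis, linear, from 0) of 15 members in each library, with the growth phase on the horizontal axis. Each symbol is 1 replicate and the line is the mean of the growth phase. *stat2*, *irf7*, *dhx58* and *socs1b* show a gap between day 8 (grey) and day 14 (red), while *ifih1*, *tyk2* and *ifnphi1* overlap.

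Among the 14 adaptors and kinases the differences were small. Of these genes, 5 (35.7%) were called higher and 0 lower, with a median of 0.31. Of all genes, 12.0% were called higher and 13.3% lower. Without library scaling 0 were called and the median was 0.12. *tbk1* and *ikbke*, the related kinases that phosphorylate IRF3 and IRF7, rose by the same 1.40-fold. *ikbke* was at 29.6, 29.2, 31.1 and 31.0 CPM on day 8 and at 41.2, 45.9 and 39.4 CPM on day 14 (log2 0.48, SE 0.14, adjusted p = 0.0223). The *tbk1* values were 22.6, 19.8, 22.7 and 17.8 CPM, then 29.9, 31.6 and 25.1 CPM (log2 0.48, SE 0.16, adjusted p = 0.0402). Neither gene's libraries overlapped between the growth phases. The adaptors upstream of these kinases were not called. *mavs*, the mitochondrial adaptor of the RNA helicases, was at 34.5, 27.9, 22.5 and 24.0 CPM on day 8 and at 36.9, 31.9 and 29.7 CPM on day 14 (0.28, adjusted p = 0.275), and *ticam1*, the TRIF adaptor of TLR3, differed by 0.18 (adjusted p = 0.487).

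*myd88*, the adaptor of most other Toll-like receptors, was at 16.3, 14.9, 21.9 and 22.7 CPM on day 8 and at 24.8, 23.0 and 27.0 CPM on day 14. The libraries did not overlap, yet the difference of 0.39 (SE 0.18, adjusted p = 0.130) was not called, whereas with the replicate as a block it was (0.49, adjusted p = 0.0117). Several TRAF proteins, though not all, are ubiquitin ligases or scaffolds that gather below these adaptors and the TNF receptors. Of 9 *traf* genes, 3 were called higher (33.3%, beside 12.0% of all genes). *traf2* was at 4.09, 5.73, 3.91 and 6.18 CPM on day 8 and at 8.51, 7.75 and 8.51 CPM on day 14 (1.65-fold, log2 0.72, SE 0.21, adjusted p = 0.0250). *traf4* copy 1 was at 12.6, 10.6, 10.1 and 9.55 CPM and then at 14.5, 16.3 and 14.7 CPM (log2 0.51, SE 0.16, adjusted p = 0.0377), and *traf7* ranged from 48.9 to 55.7 CPM on day 8 and from 69.3 to 75.6 CPM on day 14 (log2 0.48, adjusted p = 0.0197). In all 3 the growth phases were separate. *traf6*, the ligase used by MyD88, was close to level (-0.05, adjusted p = 0.861), *traf3*, *traf2b*, *traf1* and *traf4* copy 2 lay between 0.09 and 0.34, and *traf5* (-1.17, adjusted p = 0.226) had 2 to 37 counts. Omitting replicate 1 or replicate 2 of day 14 also ended each of the 5 calls among adaptors and kinases, and omitting replicate 2 or 4 of day 8 or replicate 4 of day 14 ended some of them, with an adjusted p of at most 0.236 over all alternatives.

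The transcription factors held 10 of the 24 calls of higher members. Of 19, 10 (52.6%) were called higher and 1 lower, with a median of 0.65, beside 12.0% and 13.3% of all genes. Without overlap, 9 were higher and 1 lower (all genes, 17.1% and 17.7%). The per-library median deviation from the day 8 mean (log2(CPM + 1)) ranged from -0.00 to 0.05 over the day 8 libraries and from 0.43 to 0.65 over those of day 14. Without library scaling 6 were called higher and 1 lower, with a median of 0.47.

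**Figure D3:**
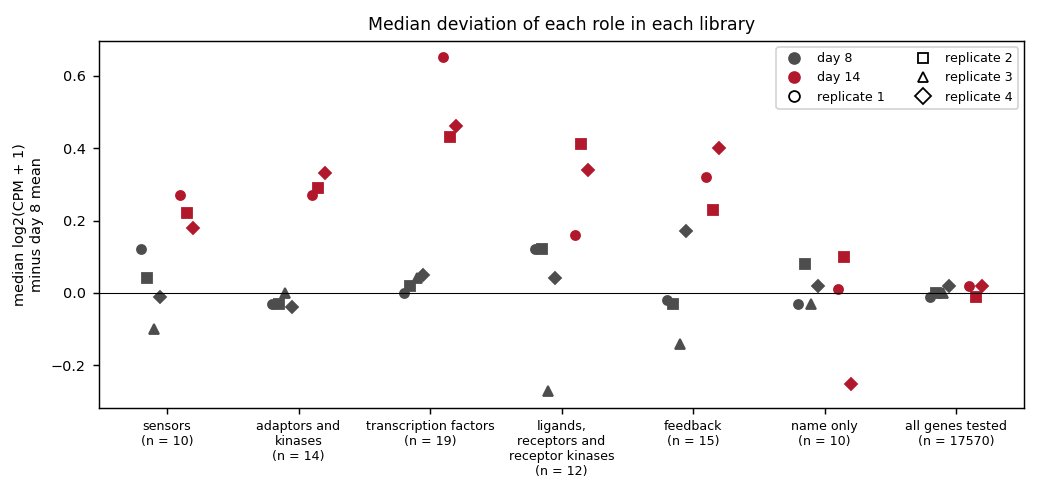
Median over the genes of each role of log2(CPM + 1) minus the gene's day 8 mean (vertical axis), with 1 symbol per library, for the 5 roles, the name-only members and all 17570 genes. The transcription factors lie at 0.43 to 0.65 in the day 14 libraries, the name-only members at -0.25 to 0.10 and all genes at -0.01 to 0.02.

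*stat2* and *irf9*, which encode parts of ISGF3, both rose. *stat2* was at 51.9, 28.5, 31.0 and 30.9 CPM on day 8 and at 218, 259 and 249 CPM on day 14. Even the highest day 8 library, replicate 1, was far below the lowest of day 14 (6.82-fold, log2 2.77, SE 0.21, adjusted p = 4.05e-05), and this was the largest difference among the transcription factors described here. *irf9*, the DNA-binding partner, rose from 38.8, 42.5, 48.3 and 45.2 CPM to 82.4, 105 and 75.3 CPM (2-fold, log2 1.00, SE 0.16, adjusted p = 9.06e-04). In neither gene did the growth phases overlap, and both calls held in each of the 18 alternatives.

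IRF3 and IRF7 are the factors activated by TBK1 that induce interferon genes. *irf7* was at 11.5, 9.2, 14.4 and 11.5 CPM on day 8 and at 37.7, 72.1 and 40.8 CPM on day 14, with replicate 2 of day 14 the highest (4.31-fold, log2 2.11, SE 0.23, adjusted p = 1.49e-04). *irf3* was at 5.41, 4.77, 6.36 and 6.1 CPM and then at 15.3, 20.1 and 20.3 CPM (3.28-fold, log2 1.71, SE 0.18, adjusted p = 1.20e-04). IRF1 activates interferon and interferon-stimulated promoters, and in mammals IRF2 competes with it for the same sites. *irf1b* rose from 29.3, 29.3, 40.9 and 33.4 CPM to 77.6, 135 and 114 CPM (3.27-fold, log2 1.71, SE 0.20, adjusted p = 1.77e-04), whereas *irf1a*, at 0.48 to 1.36 CPM in all libraries, was not called (0.05, adjusted p = 0.952). *irf2b* was the only transcription factor called lower, at 41.1, 51.9, 52.7 and 54.8 CPM on day 8 and 32.9, 37.4 and 24.8 CPM on day 14. Its difference was -0.66 (SE 0.18, adjusted p = 0.0160), with every day 14 library below every day 8 library, and the call was lost without replicate 4 of day 14 (-0.51, adjusted p = 0.0824). *irf2a* was not called (0.25, adjusted p = 0.419). *irf10* was called higher (0.71, adjusted p = 0.0348), but its ranges of 6.95 to 12.8 and 12.6 to 18.5 CPM overlapped and the call was kept in only 11 of 18 alternatives, among those that lost it being each omission of a library other than replicate 3 of day 8 (adjusted p at most 0.167).

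Of the STAT factors of other cytokines, *stat3* and *stat6* were called higher. *stat3*, which relays IL-6-type cytokines, was at 46.7, 50.1, 37.8 and 52.5 CPM on day 8 and at 74.2, 68.3 and 78.4 CPM on day 14 (1.57-fold, log2 0.65, SE 0.15, adjusted p = 0.00807), and the call was lost without library scaling (0.47, adjusted p = 0.0805). *stat6*, which relays IL-4 and IL-13, was at 9.81, 11.1, 8.05 and 12 CPM and then at 17.9, 15.9 and 28.1 CPM (2.01-fold, log2 1.01, SE 0.22, adjusted p = 0.00526). In both, the growth phases were separate. *stat4* (0.01), *stat5a* (-0.39) and *stat5b* (0.48) were not called, and *stat5a* had 0 counts in replicate 3 of day 8 and replicate 2 of day 14. Over these 6 *stat* genes, *stat2* included, 3 were called higher, and over the 8 *irf* genes 5 higher and 1 lower. The shares over all genes were 12.0% higher and 13.3% lower.

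The 5 NF-kB subunits, the other arm below the sensors, had a median difference of 0.19, or -0.00 without library scaling. *rela*, the main activating subunit, was at 3.86, 5.25, 4.4 and 6.23 CPM on day 8 and at 8.9, 6.41 and 8.09 CPM on day 14 (1.57-fold, log2 0.65, SE 0.22, adjusted p = 0.0421). The gap between the growth phases was narrow, and the call was lost without any 1 of replicates 1, 2 and 3 of day 8 or replicates 1 and 4 of day 14, and without library scaling (adjusted p at most 0.155). *relb*, the subunit of the slower non-canonical pathway, ranged from 27.1 to 44.9 CPM on day 8 and from 54.9 to 56.6 CPM on day 14 (1.58-fold, log2 0.66, SE 0.17, adjusted p = 0.0146), and was not called without library scaling or when replicate 2 of day 14 was omitted (adjusted p at most 0.115). *nfkb1*, whose precursor gives the p50 subunit, was at 3.17, 2.96, 1.96 and 2.98 CPM and then at 2.67, 0.991 and 2.34 CPM (-0.45, adjusted p = 0.371). *nfkb2* (0.19) and *rel* (0.12) were not called, and without library scaling both differences were at or below 0 (-0.00 and -0.06).

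Of the 12 ligands, receptors and receptor kinases, 3 were called higher (2 without library scaling) and 0 lower, with a median of 0.34. Over all genes 12.0% were called higher and 13.3% lower, or 6.93% and 18.5% without library scaling. In either direction the share called in this role was near the 25.3% of all genes. The only interferon ligand among the genes tested was *ifnphi1*, a type I interferon of fish. It was at 3.55, 1.37, 3.91 and 3.24 CPM on day 8 and at 2.94, 5.19 and 4.42 CPM on day 14, and the overlapping values gave 0.47 (SE 0.34, adjusted p = 0.338). In zebrafish, CRFB1 and CRFB2 are the receptor chains that distinguish the interferon-phi groups, each with the shared chain CRFB5, which was not assessed. *crfb1* was at 1.24, 3.32, 3.1 and 2.94 CPM on day 8 and at 4.29, 6.59 and 4.95 CPM on day 14 (1.95-fold, log2 0.96, SE 0.30, adjusted p = 0.0356). Its call was lost without library scaling (0.79, adjusted p = 0.0719) and without replicate 4 of day 8, replicate 2 of day 14 or replicate 4 of day 14 (adjusted p = 0.0593, 0.157 and 0.0855). *crfb2* was at 2.94, 3.95, 2.5 and 4.69 CPM and then at 4.83, 5.19 and 4.74 CPM, separate by a small margin and not called (0.47, adjusted p = 0.184).

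*ifngr1l*, named as a chain of the type II (interferon gamma) receptor, roughly doubled. It was at 6.88, 8.72, 4.95 and 7.46 CPM on day 8 and at 15.8, 11.6 and 14.3 CPM on day 14 (1.98-fold, log2 0.98, SE 0.21, adjusted p = 0.00484). *ifngr2* (0.22), *crfb4* (0.02) and *crfb16* (-0.76) were not called, although *crfb16*, at 0.291 to 0.81 CPM, was lower in every day 14 library than in any of day 8.

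Of the 5 receptor kinases, 1 was called higher and 0 lower, beside 12.0% and 13.3% of all genes, or 25.3% in either direction. *jak1*, which serves type I, type II and IL-6-type receptors, was at 203, 178, 133 and 165 CPM on day 8 and at 329, 321 and 303 CPM on day 14. All day 14 libraries lay well above the day 8 libraries (1.87-fold, log2 0.91, SE 0.16, adjusted p = 0.00205), and the call held in each of the 18 alternatives. *tyk2*, its partner on the type I receptor, was at 21.8, 18.2, 10.3 and 14.3 CPM and then at 17.2, 14.0 and 19.5 CPM. All day 14 values fell within the day 8 range (0.07, SE 0.23, adjusted p = 0.853). The sign turned negative without library scaling (-0.13), in the blocked fit (-0.09) and when replicate 3 of day 8 (-0.08) or replicate 4 of day 14 (-0.04) was omitted. *jak2* (0.14), *jak2a* (-0.12) and *jak3* (0.73, on 2 to 22 counts) were not called, and *jak2* turned to -0.05 without library scaling.

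Of the 15 feedback genes, 4 were called higher (3 without library scaling, 6 with the replicate as a block) and 0 lower, with a median of 0.46. The share called, 26.7%, was near the 25.3% of all genes called in either direction (12.0% higher and 13.3% lower). The SOCS proteins are induced by STAT factors and inhibit JAK activity, and SOCS1 and SOCS3 do so directly. *socs1* was at 23.0, 27.2, 38.2 and 37.6 CPM on day 8 and at 54.1, 75.3 and 63.4 CPM on day 14 (2.03-fold, log2 1.02, SE 0.20, adjusted p = 0.00291). *socs1b* was low on day 8, at 0.541, 0.997, 0.109 and 0.767 CPM (2 to 27 counts), and at 4.65, 11.1 and 8.35 CPM on day 14 (155 to 190 counts). The difference was 12.6-fold (log2 3.65, SE 0.47, adjusted p = 4.22e-04). *socs3* copy 2 rose from 110, 142, 156 and 180 CPM to 236, 356 and 313 CPM (2.05-fold, log2 1.04, SE 0.19, adjusted p = 0.00252). In these 3 genes all day 14 libraries were above those of day 8.

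*socs3* copy 1 was at 80.4, 108, 86.8 and 110 CPM on day 8 and at 119, 163 and 117 CPM on day 14. Its growth phases were also separate, but the difference of 0.46 (SE 0.18, adjusted p = 0.0726) was not called, except with the replicate as a block (0.41, adjusted p = 0.0167) and with upper quartile scaling (0.53, adjusted p = 0.0387). *usp18* encodes the protease that removes ISG15 from proteins and, in mammals, blocks the type I receptor. It was at 4.25, 3.03, 4.62 and 3.16 CPM on day 8 and at 5.64, 7.28 and 5.64 CPM on day 14 (1.65-fold, log2 0.72, SE 0.23, adjusted p = 0.0335). The call was lost without any 1 of replicates 2 and 4 of day 8 or replicates 1, 2 and 4 of day 14, and without library scaling (adjusted p at most 0.141). Over the 10 *socs* genes 3 were called higher (30.0%, beside 12.0% of all genes), with a median of 0.59. *socs5a* (0.58, adjusted p = 0.0521) was called in 7 of 18 alternatives, the block (0.45, adjusted p = 0.0366), upper quartile scaling, both minimum means, DESeq2, the newer form of the fit and the omission of replicate 1 of day 8. The genes *socs2*, *socs5b*, *socs6* copies 1 and 2 and *socs9* lay between -0.43 and 0.70. The 4 IkB inhibitors, *nfkbiaa*, *nfkbiab*, *nfkbib* and *nfkbie*, which hold NF-kB in the cytoplasm, had 0 calls and differences between -0.08 and 0.11, with a median of 0.04 that became -0.13 without library scaling.

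The ratio of 2 similar copies did not overlap between the growth phases in 4 of the 9 pairs for which it was computed, a description for which no share over other gene pairs was taken. Since CPM values are not divided by length, only the change of the ratio between libraries carries information. The log2 ratio of *irf1a* to *irf1b* went from between -5.93 and -4.91 to between -7.59 and -6.21, and for *socs3* copy 1 to copy 2 from between -0.84 and -0.40 to between -1.42 and -0.99. In both pairs the ratio moved towards the second copy. The *tlr5a* to *tlr5b* ratio was 0.00 to -0.79 on day 8 and -1.70 to -1.40 on day 14, while that of *irf2a* to *irf2b* moved the other way, from between -0.69 and -0.05 to between 0.22 and 1.15. The ratios of the *socs5*, *socs6*, *traf4*, *nfkbia* and *irf2bp2* pairs overlapped, and that of *stat5a* to *stat5b* was not computed because 2 libraries had 0 counts. Reads shared by close copies can be divided between them by pseudo-alignment, and how much was shared was not tested.

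**Figure D4:**
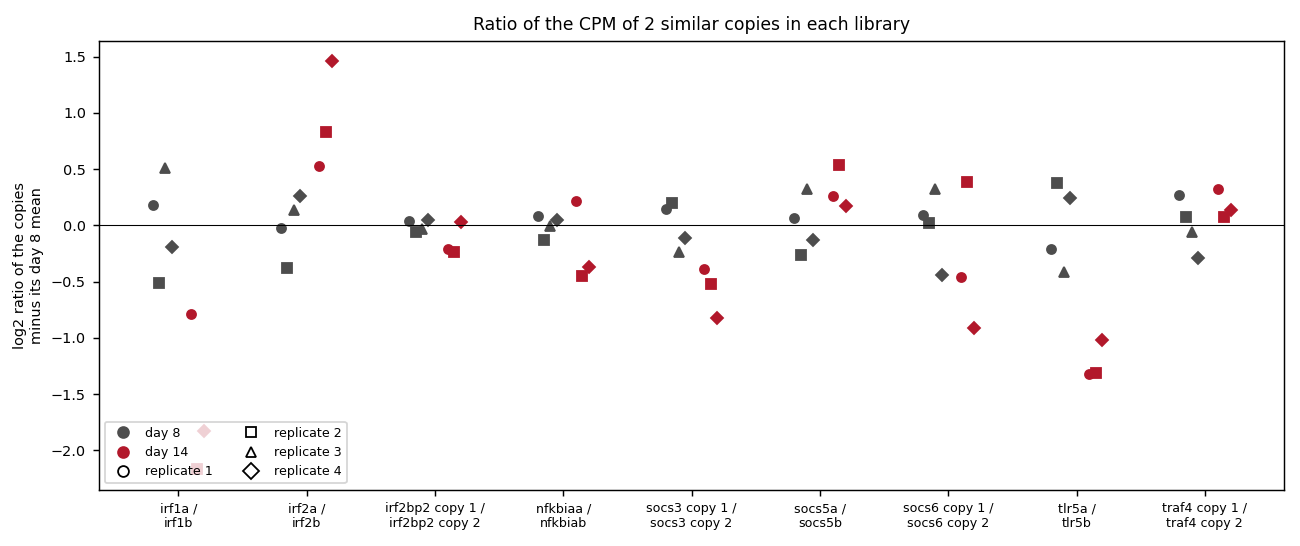
Log2 ratio of the CPM of 2 similar copies, minus its mean over the day 8 libraries (vertical axis), with 1 symbol per library (grey, day 8; red, day 14) for 9 pairs. Before that subtraction, the log2 ratio of *irf1a* to *irf1b* is between -5.93 and -4.91 on day 8 and between -7.59 and -6.21 on day 14. In 4 pairs the growth phases do not overlap.

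The 10 name-only members are neighbours in name but not members of these families. They include the IRF2-binding corepressors (*irf2bp1*, *irf2bpl* and both copies of *irf2bp2*), the *jakmip* genes, *traf3ip1* of intraflagellar transport and *traf3ip2l*, named after an adaptor of the IL-17 receptor. With growth phase as the only term, 0 were called, and their median was -0.00 (from -0.65 to 0.32). With the replicate as a block, *jakmip2* was called lower (-0.52, adjusted p = 0.0275).

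Genes of the same pathway that the name rule does not take were described from fixed lists. Of 37 interferon-stimulated effectors, 31 (83.8%) were called higher and 0 lower, with a median of 1.83. Of all genes, 12.0% were called higher and 13.3% lower. The list held 34 names or starts of names, of which 9 had no row in the matrix. Which of the effectors depend on ISGF3 was not tested. *rsad2*, which encodes the antiviral enzyme viperin, was at 1.78, 0.591, 1.2 and 0.981 CPM on day 8 and at 15, 37.6 and 13.7 CPM on day 14 (20.4-fold, log2 4.35, SE 0.44, adjusted p = 2.29e-04). *ifi44a8* had 0 to 2 counts in the day 8 libraries and 2.79, 19.3 and 9.68 CPM on day 14, and *ifit10* had 0 to 4 counts and then 5.97, 11.8 and 5.0 CPM. All 3 were highest in replicate 2 of day 14. Genes of very low expression had been dropped from the matrix. Effectors near 0 on day 8, such as *ifi44a8* and *ifit10*, therefore had a row only through their day 14 level. The direction of such genes was fixed by that filter, and they are counted in the 31. Of 23 partners in sensor and NF-kB signalling, 5 were called higher and 0 lower, with a median of 0.10 (-0.06 without library scaling). The share called higher, 21.7%, was above the 12.0% of all genes called higher. In either direction it was near the 25.3% of all genes. The largest rises were those of the receptor *cd40* (1.48, adjusted p = 2.77e-04), *rbck1* of the linear ubiquitin complex (1.24, adjusted p = 0.00153) and the TBK1-binding adaptor *optn* (1.12, adjusted p = 6.84e-04).

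Of 18 cytokine receptors and brakes of JAK-STAT signalling, 4 were called higher and 2 lower, with a median of 0.28. In either direction 33.3% were called, beside 25.3% of all genes. Without library scaling 1 was called higher and 3 lower, with a median of 0.10. *il6st*, the gp130 chain of the IL-6 family receptors, was at 192, 181, 112 and 145 CPM on day 8 and at 274, 250 and 235 CPM on day 14 (0.69, adjusted p = 0.0181). The phosphatase gene *ptpn2a* (0.73, adjusted p = 0.0176) and *il13ra2* (2.95, adjusted p = 0.00448, on 1 to 5 counts in the day 8 libraries), which encodes a receptor for IL-13, were also higher. At so few counts on day 8, *il13ra2* had a row in the filtered matrix only through its day 14 level, which fixed its direction. The leptin receptor *lepr* (-0.63, adjusted p = 0.0160) and *cish*, a STAT5-induced relative of the SOCS genes (-0.61, adjusted p = 0.00871), were lower. Omitting replicate 2 of day 14 ended the calls of *il6st*, *ptpn2a* and *lepr*. Those of *il6st* and *ptpn2a* were also lost without library scaling (adjusted p = 0.143 and 0.0949), that of *il6st* when replicate 1 of day 14 was omitted, and that of *ptpn2a* when replicate 2 of day 8 or replicate 4 of day 14 was omitted.

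**Figure D5:**
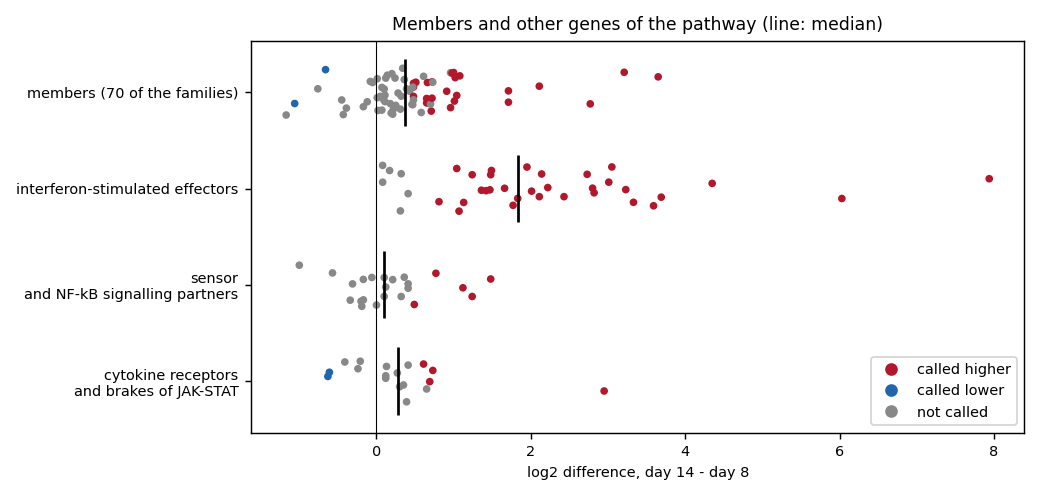
Log2 difference of day 14 over day 8 for the 70 members of the families and for the genes of 3 fixed lists (vertical spread within a row is only for legibility). Each point is 1 gene, red called higher, blue lower and grey not called, and the black line is the median: 0.38 for the members, 1.83 for 37 effectors, 0.10 for 23 signalling partners and 0.28 for 18 cytokine receptors and brakes.

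Among the day 14 libraries, replicate 2 was the highest of the 3 in 32 of the 80 members (40.0%) and in 32.9% of all genes. In the 24 members called higher, which were picked by their day 14 values, it was the highest in 16 (66.7%). Of the 37 effectors it was the highest in 29 (78.4%). Within the same-numbered pairs of replicates 1, 2 and 4, day 14 was above day 8 in all 3 pairs for 42 of the 80 members (52.5%) and for 31.5% of all genes.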

How the data were processed

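RNA of 7 PAC2 libraries was analysed. The authors used Kallisto for pseudo-alignment against Ensembl GRCz11 transcripts, combined the estimates per gene and dropped genes of very low expression. The deposited values are estimated counts, although the matrix is titled normalized, with 48.05% to 52.25% whole numbers per library. After rounding, edgeR 4.0.16 in R 4.3.3 was applied (TMM, robust quasi-likelihood fit, growth phase as the only term). The smallest library, with 11252559 counts, limits the precision of low genes most.

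One gene name that the rule takes is not reported here and is in no count of members. Members and gene lists were chosen with earlier results of these data known. Values per library were given for up to 3 called members per role with the largest rise or fall and for a fixed list of central genes, and for some others after their values were seen. Names came from a gene name table, which gave a symbol to 15073 genes; coordinates were not used, and sequences and promoters were not analysed here.

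Replicates differed in passage and in the day the culture was begun, and same-numbered libraries share both. The reported fit has no term for this, and the replicate block was an alternative. Deviations from the growth phase means correlated across genes by 0.302, -0.121 and 0.376 in replicates 1, 2 and 4, and by -0.329 to 0.339 between different numbers. Chi-square per degree of freedom between libraries was at least 14.44, so none was a duplicate.

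Alternatives were other scalings (none, median of ratios, upper quartile), minimum means of 1 or 5 CPM, DESeq2 1.42.0, limma 3.58.1 on log2(CPM + 1) or log2(CPM + 0.5), fits without robust estimation or in the newer form, the replicate block and the omission of each library. The test was tried on simulated data. Matplotlib 3.10.9 under Python 3.11.15 drew the figures.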

Additional observations from a re-analysis of the deposited data

Results flagged for a closer look

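In 4 of the 80 members 1 day 8 library stood apart from the other 3, a gap that chance gives in about 1 in 20 groups. Over 80 members chance alone gives about this many, so the 4 are listed without further reading. *stat2* was at 51.9 CPM in replicate 1, with the others between 28.5 and 31.0 CPM. *tlr3* was at 1.74 CPM in replicate 3, below the 2.32 to 2.43 CPM of the others. *nfkbiab* was at 35.6 CPM in replicate 3, above 21.8 to 23.4 CPM, and *socs5b* at 7.18 CPM in the same replicate, below 14.0 to 15.4 CPM.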

How the results depend on the processing

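Of 18 alternatives, none turned a called member to the opposite direction. The 24 members called higher became 13 without library scaling and 15 to 23 when 1 library was left out, the lowest without replicate 2 of day 14 (all genes: 1282 higher and 1437 lower, against 2101 and 2344). The 2 members called lower became 1 with a minimum mean of 5 CPM, where 54 members were tested and *tlr5a* was not, and 1 to 2 when 1 library was left out. With the replicate block 27 members were called higher and 3 lower, 4 calls were gained (*myd88*, *socs3* copy 1, *socs5a* and *jakmip2*) and 0 were lost, and it changed no other call of a member. Of 29 named members, 16 kept call and direction in every alternative, but these include *ifih1*, *mavs*, *nfkb1* and *crfb2*, which were never called. *tyk2*, never called, turned to -0.13 without library scaling, to -0.09 with the block and to as low as -0.08 when 1 library was left out (range -0.08 to 0.24). The cause of these changes was not tested. Fits with 1 library left out also rest on fewer libraries. Estimated counts of genes at or under 3 counts in some library, 6 of the 80 members, limit what can be said of them. The planned comparison of promoter motif spellings was not run, as promoters were not analysed here.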
